A study of Homo sapiens with 1 sample.

Results

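Among differentiating human neural progenitor cells (NPCs) of moderate sequencing depth, the cells with the most RNA of PTTG1, CCNB2 and CDC20 were examined. Members were chosen from 1 single-cell library. A barcode was kept if it had 2000 to 10000 detected genes, a mitochondrial share of its unique molecular identifiers (UMIs) from 0.01 to below 0.1, and fewer than 5 UMIs of ANXA1, TFPI2 and CTGF together per 10000 UMIs. Of 14726 barcodes 12239 were kept, and 6665 of these had between 8000 and 18000 UMIs, called the band here. The 10% of band cells with the highest summed PTTG1, CCNB2 and CDC20 UMIs per 10000 UMIs were the members, 666 cells called marker-high cells. The other 5999 band cells are called the rest. The library came from H9, an established human embryonic stem cell line, with genotype WT and the human form of the enhancer HAR123 (hHAR123), after treatment with dorsomorphin and SB431542, at first together with Rock inhibitor, to make NPCs. The study's methods give 2 days with Rock inhibitor, then 5 days under rotation with dorsomorphin and SB431542. Then came 7 days replated in a medium listed without these compounds. They also state that cells were collected just before neural rosettes were selected, and that clones were mixed before loading. With 1 library there was no replicate and no test, so differences are given as ratios with 95% intervals that cover counting error only. Libraries of other genotypes were not analysed here.

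Mitosis begins when cyclin B with the kinase CDK1 becomes active. It ends when the anaphase-promoting complex, switched on by CDC20, marks securin (the product of PTTG1) and the cyclins for destruction, which frees separase to cut the cohesin rings that hold sister chromatids together. RNAs of this program accumulate in G2, when the MuvB complex with MYBL2 and FOXM1 activates promoters that carry an element called the cell cycle genes homology region (CHR). In the developing forebrain, NPCs that line the ventricle divide by this program to renew themselves.

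The promoters of the 3 rule genes are shown because they carry the elements that this class of genes is known for. Each line gives the 120 bases before the RefSeq start on the plus strand of GRCh38.p14, with capitals for the CHR (TTTGAA or TTTAAA, or TTCAAA on the other strand) and for the CCAAT box (CCAAT, or ATTGG on the other strand). The windows are chr5:160421735-160421854 for PTTG1, chr15:59105026-59105145 for CCNB2 and chr1:43358861-43358980 for CDC20.
PTTG1: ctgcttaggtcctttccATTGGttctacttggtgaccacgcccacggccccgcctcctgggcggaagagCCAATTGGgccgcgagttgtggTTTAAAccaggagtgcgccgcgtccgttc
CCNB2: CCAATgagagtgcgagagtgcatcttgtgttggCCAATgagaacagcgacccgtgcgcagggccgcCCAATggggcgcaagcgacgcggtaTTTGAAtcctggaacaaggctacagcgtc
CDC20: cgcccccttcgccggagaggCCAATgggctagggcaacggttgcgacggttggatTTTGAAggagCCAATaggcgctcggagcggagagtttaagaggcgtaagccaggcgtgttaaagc
PTTG1 has 2 RefSeq starts, 55 bases apart, and the upstream one is used here. A CHR began 29 bases before the start in PTTG1 and in CCNB2, and 65 bases before it in CDC20. In PTTG1, 2 of the CCAAT matches shared bases, as CCAAT and ATTGG on opposite strands. Over the window from 250 bases before to 50 after the start, a CHR was found in 24.3% of 27305 RefSeq promoters and a CCAAT box in 35.7%. Such a match is only a match of letters.

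The 3 rule genes are a description of how the cells were chosen. The lowest marker-high cell had 8.34 UMIs of the 3 genes per 10000 and the first cell outside had 8.33, so no gap set the marker-high cells apart. The median was 11.2 in marker-high cells and 1.07 over the band, and 25.9% of band cells had no UMI of any of the 3. PTTG1 gave 60.6% of the summed UMIs, CCNB2 25.5% and CDC20 13.9%. A marker-high cell held a median of 10 PTTG1 UMIs (quartiles 8 and 12), 4 CCNB2 UMIs (quartiles 3 and 5) and 2 CDC20 UMIs (quartiles 1 and 3). Levels pooled over cells, in UMIs per 1000000 UMIs (CPM), were 715 against 95.6 in the rest for PTTG1, 300.3 against 43.4 for CCNB2 and 164 against 13.2 for CDC20. When cells were chosen with the other 2 genes alone, PTTG1 was 5.72-fold higher than in the rest (5.53 to 5.91), CCNB2 5.63-fold (5.35 to 5.93) and CDC20 9.35-fold (8.65 to 10.1). After each cell was thinned to 8000 UMIs, CDC20 was seen in 73.0% of marker-high cells, 8.97% of the rest and 2.84% of 141 band cells that carried at least 2 of 10 neuronal differentiation markers. The last group should hold few dividing cells, and its median depth before thinning was 12929 UMIs. PTTG1 was seen in 29.1% of those cells and in 41.8% of the rest, so its presence in a cell without a high level set few cells apart.

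**Figure D1:**
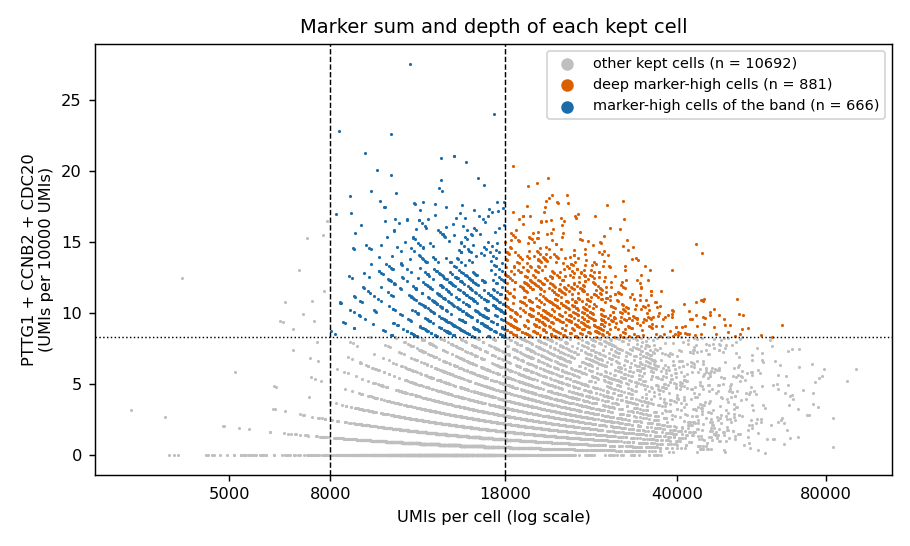
Each point is 1 of the 12239 kept cells, with its UMIs on a log scale and its summed PTTG1, CCNB2 and CDC20 UMIs per 10000 UMIs. Dashed lines mark the band and the dotted line marks the lowest marker-high cell (8.34), across which the values ran without a gap.

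The marker-high cells were shallow only beside the cells above the band. Their median depth was 14062 UMIs (quartiles 12154 and 15710), against 13807 in the rest (quartiles 11918 and 15755), and the ranges overlapped almost completely. They had a median of 4935 detected genes against 4800, and a mitochondrial share of 5.01% against 5.49%. Inside the band 8.97% to 11.1% of cells passed the same level of marker RNA in steps of 2000 UMIs. Above 18000 UMIs, 881 of 5435 kept cells passed it (16.2%, 15.2 to 17.2), with the largest share, 20.4% (18.3 to 22.7), between 24000 and 30000 UMIs. These deep marker-high cells had a median of 24184 UMIs and 6507 genes. Cells of the band and deep cells are cells of 1 library, and less RNA per cell cannot be told apart from a lower capture of it.

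Marker-high cells carried the markers of forebrain NPCs. SOX2, a neural progenitor transcription factor, stood at 524 CPM and was seen in 96.2% of thinned cells. SIX3 (268 CPM) and LHX2 (211 CPM), which act in forebrain specification, were also present, and PAX6 was at 51.6 CPM. Of the pluripotency genes, POU5F1, NANOG and TDGF1 had no UMI in these cells, which allows up to 0.325 CPM for each at 3 counts. LIN28A, also made in early neural progenitors, and DPPA4 were present, at 199 against 229 CPM and 148 against 140 CPM in the rest, and the summed pluripotency list was 347 CPM against 369 CPM. None of 22 neural progenitor genes differed from the rest by 1.5-fold (median ratio 0.925), and their sum was 5922 CPM against 6398 CPM. None of 10 contractile-cell genes differed by 1.5-fold either (median 0.945). SMG6, the gene in which HAR123 lies, was at 112 CPM against 124 CPM (ratio 0.903, 0.846 to 0.963).

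Among genes that were higher, the largest differences outside the rule genes were in RNAs of G2 and mitosis. Over all genes with at least 20 CPM in the band, 215 of 7613 (2.82%) were at least 1.5-fold higher in marker-high cells than in the rest and 498 (6.54%) were at least 1.5-fold lower, with a median ratio of 1.04. In 5 lists of G2 and mitosis genes, without the rule genes, 58 of 85 past the filter were higher and 1 was lower, but 10 of the 85 were under 20 CPM in the rest and passed only through the marker-high cells, so these had to be higher. The list counts of higher genes that follow are therefore over genes with at least 20 CPM in the rest alone, and the list counts of lower genes over genes with at least 20 CPM in marker-high cells alone, a choice made after seeing the data. By the first 48 of 75 were higher and 1 lower, with a median ratio of 2.00, and 194 of 7571 genes were higher (2.56%), with a median of 1.04. By the second 339 of 7709 genes were lower (4.40%), with a median of 1.06. Values of listed genes left out by the filters are given as values only, such as PLK1, the polo kinase of mitosis, at 59.5 against 6.21 CPM, and KIF20A, a kinesin of cytokinesis, at 26.2 against 3.18 CPM.

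Of the G2 genes, 17 of 18 were higher (median 3.65). HMMR, a spindle protein, was at 237 CPM against 29.0 (8.18-fold, 7.71 to 8.67). TPX2, which activates the kinase Aurora A on the spindle, was at 493 CPM against 73.1 (6.75-fold, 6.50 to 7.02). ASPM, a spindle-pole protein of dividing neural progenitors, was 5.60-fold higher (5.33 to 5.88). TOP2A, which untangles chromosomes, was at 459 CPM against 104, and CENPF, a kinetochore protein, at 1180 CPM against 281. The exception was TMPO, a nuclear lamina protein, at 363 against 254 CPM. The summed G2 list had a median of 58.8 UMIs per 10000 in a marker-high cell and 10.9 in a cell of the rest. The 5th percentile of marker-high cells, 26.2, lay below the 95th percentile of the rest, 53.3, so the groups overlapped.

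Among the cyclins and kinases of mitosis, 7 of 9 were higher (median 3.08). CCNB1, the main cyclin partner of CDK1, was at 386 CPM against 50.4 (7.65-fold, 7.3 to 8.0). CDKN3, a phosphatase that acts on cyclin-dependent kinases, was 6.09-fold higher (5.66 to 6.54). CDK1 itself stood at 57.0 CPM against 29.2 (1.95-fold, 1.78 to 2.15), a smaller difference than those of its cyclins. No CDK1 UMI was seen in 453 of 666 marker-high cells (68.0%, 64.3 to 71.5). MELK and WEE1, the kinase that holds CDK1 inactive, were the genes not higher, with ratios of 0.950 and 0.771.

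Genes of the later steps of division were higher as well. In the list of late mitosis and cytokinesis 9 of 10 were higher (median 2.78). BIRC5, of the chromosomal passenger complex, which moves from centromeres to the midzone at anaphase, was at 333 CPM against 78.2 (4.26-fold, 4.08 to 4.45). AURKB and CDCA8 of the same complex were under 20 CPM in the rest and outside the count, at 84.1 against 15.9 CPM and 82.5 against 15.6 CPM. ECT2, which places the cleavage furrow, was 3.40-fold higher (3.20 to 3.61). RHOA, the GTPase that ECT2 activates, was at 244 CPM against 225 (1.09-fold, 1.04 to 1.13).

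In the kinetochore and centromere list 11 of 19 were higher (median 1.68). SGO2, a shugoshin that guards cohesion at centromeres, was 5.56-fold higher (5.18 to 5.96) and NUF2 of the outer kinetochore 5.31-fold (4.95 to 5.69). Inner kinetochore genes ranged widely, with CENPN 1.82-fold and CENPM 1.55-fold higher, CENPU at 90.5 CPM against 70.1 and CENPK at 72.7 against 101. CENPA, the histone that marks centromeres, was under 20 CPM in the rest and outside the count, at 82.5 CPM against 12.7. Of the anaphase-promoting complex and its partners, 4 of 19 were higher (median 1.16). These 4 were UBE2C (6.35-fold, 6.01 to 6.71) and UBE2S (3.66-fold, 3.54 to 3.79), which supply ubiquitin to the complex, and MAD2L1 (2.90-fold) and BUB3 (1.72-fold) of the spindle checkpoint that restrains it. The subunits of the complex in the list had ratios between 0.774 and 1.38. FBXO5, which blocks the complex until mitosis, was lower, with a ratio below 1 (0.582-fold, 0.507 to 0.665).

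**Figure D2:**
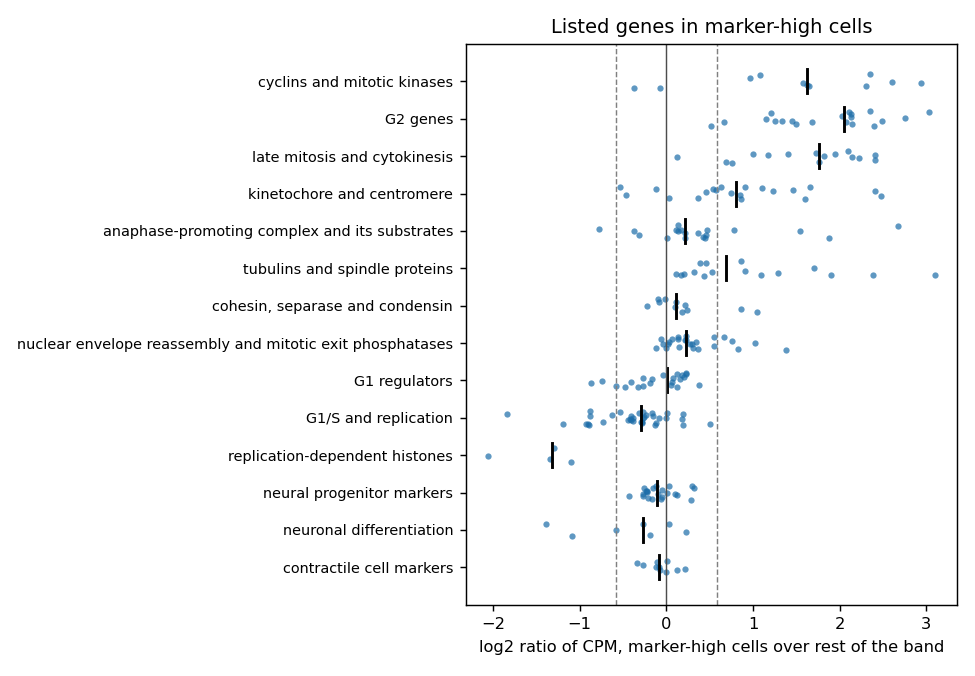
Each point is a listed gene with at least 20 CPM over the band, of which some passed only through the marker-high cells or only through the rest, placed by the log2 ratio of its pooled CPM in the 666 marker-high cells over the 5999 other band cells; vertical bars are list medians and dashed lines mark 1.5-fold either way. G2 genes have the highest median of the points drawn (ratio 4.14).

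Structural genes of the dividing cell were higher in part. Of the tubulins and spindle proteins 7 of 15 were higher (median 1.44), led by DLGAP5, a spindle assembly factor, at 311 CPM against 36.3 (8.58-fold, 8.15 to 9.03). TUBA1C (5.21-fold) and TUBB4B (3.72-fold) stood well above TUBA1A (1631 against 1303 CPM) and TUBB2B (442 against 394 CPM), which are abundant in neural cells. TUBA1C and TUBA1A are similar in sequence, as are TUBB4B and TUBB2B, and how their reads were assigned was not examined. Of 11 genes of cohesin, its loosening factors and condensin, RAD21, the cohesin subunit that separase cuts, was 2.07-fold higher (1.99 to 2.15) and SMC2 of condensin 1.81-fold (1.71 to 1.91). Of the genes of nuclear envelope reassembly and mitotic exit, 5 of 25 were higher (median 1.17). These were KPNA2 (2.60-fold), LBR (2.03-fold), LMNB1 (1.78-fold), RCC1 (1.69-fold) and LMNB2 (1.58-fold), while the genes of ESCRT membrane sealing and of phosphatase control in that list stayed between 0.921 and 1.29. Of the regulators, 1 of 11 genes of MuvB and its partners was higher: FOXM1, at 59.4 CPM against 21.4 (2.78-fold, 2.52 to 3.06). MYBL2 was at 25.9 CPM against 29.2.

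Outside the lists, H2AFX, a histone variant of DNA repair, was the highest gene with at least 20 CPM in the rest (3.10-fold, 2.93 to 3.28). APOLD1, KNSTRN, a spindle protein, and PRR11 passed the band filter through the marker-high cells alone, at 69.6 against 15.5, 67.4 against 16.7 and 61.5 against 15.6 CPM. GPSM2, which orients the spindle (2.31-fold), MZT1 of the microtubule-nucleating ring (2.17-fold) and SPDL1 of the kinetochore (2.17-fold) were also among the 15 highest past the band filter. NUCKS1, a chromatin protein, was the most abundant of them, at 1791 CPM against 858.

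Promoters of the higher listed genes often held a CHR. Of the 48 higher genes with at least 20 CPM in the rest, 40 were matched to a RefSeq promoter and 33 of these held a CHR (82.5%). A CHR together with a CCAAT box was found in 65.0%, against 9.49% of all promoters. Over all 58 higher genes past the band filter these shares were 75.5% and 57.1%. Of 25 matched promoters of listed genes that were not higher, 4 held a CHR (16.0%). The lists were drawn from known cell-cycle genes, so these shares are a description of the lists as much as of the cells.

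The working name of these cells was late-mitosis or early-G1 progenitors, and genes that act in G1 did not set them apart from the rest. None of 22 G1 regulators past the band filter was 1.5-fold higher. Of the 21 with at least 20 CPM in marker-high cells 1 was lower (CDK6, at 21.2 CPM against 35.5), and the median ratio was 1.04. BTG2 passed the band filter through the rest alone, at 12.8 against 23.4 CPM. The D-type cyclins, which carry cells through G1, were at 133 against 177 CPM for CCND1 (0.751-fold, 0.708 to 0.796) and 112 against 155 for CCND2 (0.720-fold, 0.675 to 0.767). The rest holds many cells with little G2 RNA (median 10.9 UMIs of the G2 list per 10000), so ratios near 1 do not tell whether marker-high cells included cells in early G1. The phase of single cells was not measured, and the cells are named here by the rule alone.

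Genes of DNA replication were lower or near the rest in pooled levels, while medians per cell differed little. The summed G1/S and replication list had a median of 22.1 UMIs per 10000 in marker-high cells and 21.9 in the rest. The 95th percentiles were 35.4 and 70.1. Of 35 genes of G1/S and replication with at least 20 CPM in marker-high cells, none was higher and 8 were lower (22.9%, median 0.821). DTL, a ubiquitin ligase subunit of S phase, was at 22.9 CPM against 81.8 (0.280-fold, 0.243 to 0.321), and POLA1, of the polymerase that starts new strands, at 73.4 against 168 (0.437-fold, 0.404 to 0.472). PCNA, the polymerase clamp, was at 106 CPM in both groups. Of the replication-dependent histones, HIST1H4C was at 120 CPM against 258 (0.466-fold, 0.439 to 0.495). HIST1H1B, HIST1H1C and HIST1H1E reached 20 CPM in the rest alone, at 8.87 against 36.9, 12.6 against 30.7 and 16.4 against 41.6 CPM, and HIST1H2BH in marker-high cells alone, at 23.3 against 14.1 CPM, so no count is given for them. These histone RNAs mostly lack a poly(A) tail, so a 3' library holds only part of them.

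Levels over deciles of the band by the same sum are given as a description only, since the sum is the one that chose the cells and no order in time was measured. HIST1H4C was at 94.5 CPM in the lowest decile, 594 in the 8th, 462 in the 9th and 120 in the 10th, which holds the marker-high cells. CCNE1, the cyclin of the G1/S step, stood between 15.5 and 26.0 CPM from the 1st to the 8th decile, then at 7.03 and 4.87. CCNB1 was at 62.5 CPM in the 8th decile, 162 in the 9th and 386 in the 10th. CDK1 differed from it, with 54.2, 49.1 and 57.0 CPM in the same deciles. CCND1 stood between 159 and 200.5 CPM up to the 8th decile and at 143 and 133 in the last ones. The first 3 deciles hold many cells tied at no marker UMI, and in the 3rd to the 5th the order follows depth (median 15709, 14546 and 11595 UMIs), so the order of the first 5 means little.

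**Figure D3:**
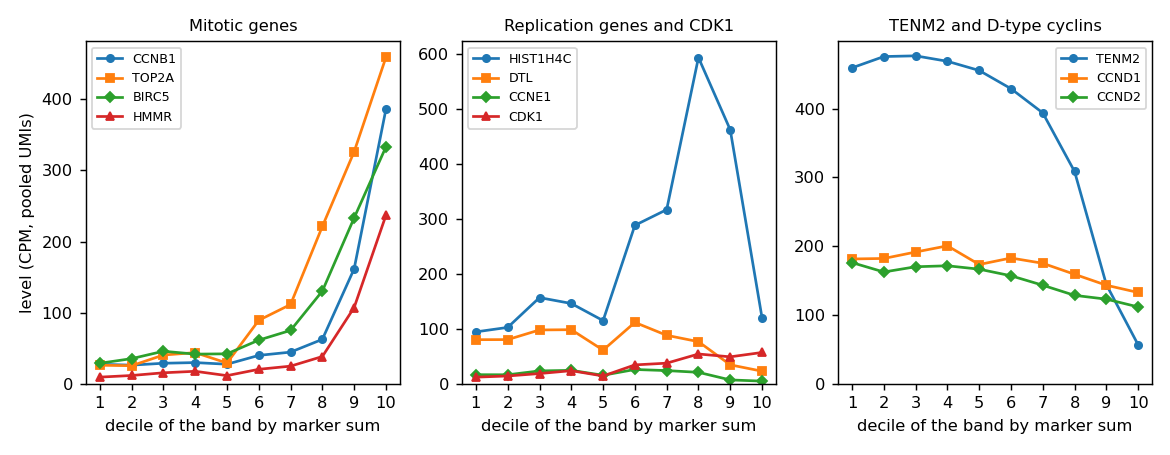
Pooled levels (CPM) of selected genes in deciles of the 6665 band cells ordered by the summed PTTG1, CCNB2 and CDC20 UMIs per 10000; the 10th decile is the 666 marker-high cells, and axes start at 0. HIST1H4C is highest in the 8th decile (594 CPM), CCNB1 in the 10th (386 CPM), and TENM2 goes from 459 CPM in the 1st to 56.6 CPM in the 10th.

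The genes lower in marker-high cells were for the most part long genes. Of the 498 lower genes, 291 spanned 300 kb or more of the genome (58.4%), against 7.38% of all genes tested, while 0 of the 215 higher genes were that long. With the filter read in the marker-high cells alone, so that no gene passed through the rest, 339 genes were lower and 223 of these were that long (65.8%, against 6.36% of genes tested). Spans came from GENCODE and were found for 99.9% of tested genes. The median ratio was 1.10 for genes under 10 kb, 1.12 from 10 to 30 kb, 1.07 from 30 to 100 kb, 0.952 from 100 to 300 kb, 0.679 from 300 to 1000 kb and 0.442 above that. In the longest class 43 of 52 genes were lower (82.7%). With the filter read in marker-high cells alone, the last 2 medians were 0.711 and 0.469, and 33 of 40 genes in the longest class were lower (82.5%). Across 7602 genes, which are not independent replicates, span and log2 ratio had a Spearman rho of -0.418. The submitters' processing notes name Cell Ranger 7.0.1, which by default counts reads in introns as well as exons.

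The 10 lowest genes all spanned 300 kb or more, but of those named here TENM2 and DCC alone had at least 20 CPM in marker-high cells, and the others passed the filter through the rest. LINGO2, a leucine-rich repeat membrane protein, was at 8.87 CPM against 80.6 (0.110-fold, 0.0874 to 0.137). TENM2, a teneurin adhesion protein, was at 56.6 CPM against 400 (0.142-fold, 0.130 to 0.154), and in deciles of the band it stood at 309 CPM in the 8th, 144 in the 9th and 56.6 in the 10th. CNTN5, a contactin, was at 7.79 CPM against 53.0 (0.147-fold, 0.115 to 0.185). DCC, the netrin receptor of growing axons, was at 28.4 CPM against 142 (0.200-fold, 0.176 to 0.226). MDGA2 (0.158-fold), GRM8, a glutamate receptor (0.167-fold), and CHRM3, an acetylcholine receptor (0.205-fold), were also among the 10 lowest.

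The share of a cell's UMIs that came from genes of 300 kb or more had a median of 5.54% in marker-high cells (quartiles 4.28 and 6.81) and 8.60% in the rest (quartiles 7.18 and 10.1). Of marker-high cells 48.5% were in the band's lowest decile by this share. Of 3 RNAs that stay in the nucleus with at least 20 CPM in marker-high cells, 2 were lower, NEAT1 at 27.8 CPM against 65.4 and KCNQ1OT1 at 79.8 against 121. MIAT passed the band filter through the rest alone, at 19.8 against 56.1 CPM. MALAT1, the most abundant and the other of the 3, was at 7850 CPM against 9750 (0.805-fold).

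Neurons express many long genes, and cells with neuronal markers made up part of the rest. Of the 141 band cells with such markers 2 were marker-high cells, and the share of UMIs in long genes in these cells had a median of 10.4%. Leaving them out of the rest changed the median ratio of genes from 300 to 1000 kb from 0.679 to 0.680 and of the longest from 0.442 to 0.448. Cells with fewer than 2 of the 10 markers stayed in the rest, and the part of neurons in the long-gene difference was not otherwise tested. Of 6 neuronal differentiation genes with at least 20 CPM in marker-high cells, 2 were lower and none higher (median 0.853). STMN2, a neuronal tubulin-binding protein that passed the band filter through the rest alone, was at 19.6 CPM against 51.5, but it was seen in 9.46% of thinned marker-high cells and 9.29% of the rest, and in cells with neuronal markers it stood at 1648 CPM. DCX, a microtubule protein of young neurons, and the transcription factor EBF1 were the 2 lower genes, at 47.9 CPM against 102 and 53.0 against 79.6.

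**Figure D4:**
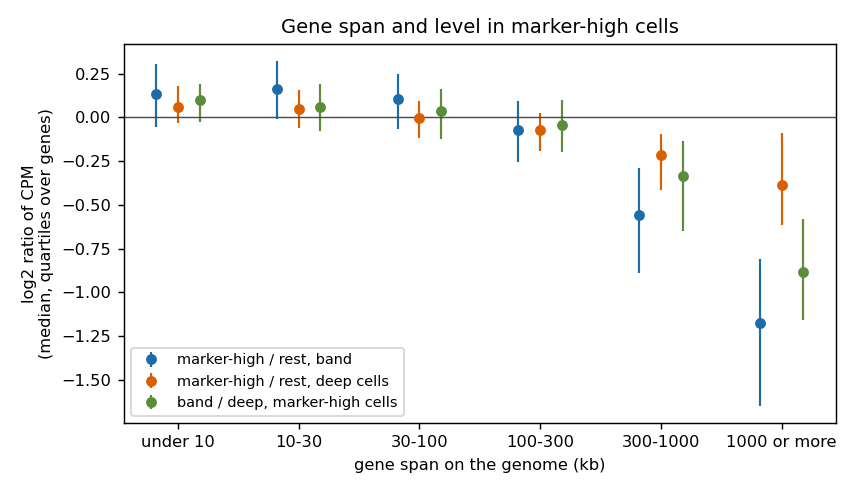
Median log2 ratio of pooled CPM, with quartiles over genes, by gene span in kb for 3 comparisons: marker-high cells over the rest within the band, the same contrast within deep cells, and band over deep marker-high cells. In the band the median ratio goes from 1.10 under 10 kb to 0.442 at 1000 kb or more.

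Deep cells gave a contrast with no cell in common, but with unlike reference cells. The same 3 genes and the same cut chose the cells in both contrasts, so genes shared by them are a description and not independent support. The summed G2 list had a median of 42.5 UMIs per 10000 in the rest of the deep cells and 10.9 in the rest of the band. Deep marker-high cells against the rest of the deep cells had 126 of 7720 genes higher (1.63%) and 194 lower (2.51%). Among genes tested in both contrasts, 81 were higher in both, which was 38.4% of the 211 higher in the band and 92.0% of the 88 higher among deep cells. For lower genes 127 were shared, 28.0% of the 454 in the band and 78.9% of the 161 among deep cells. HMMR and TPX2 were higher and TENM2 lower in both. The long-gene difference was smaller among deep cells, with median ratios of 0.861 from 300 to 1000 kb and 0.765 above that. TENM2 was 0.619-fold there, and LINGO2 0.586-fold.

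With the same cut on the counted marker sum, marker-high cells of the band carried less of most other mitotic RNAs than deep marker-high cells. Shallower cells reach that cut with fewer UMIs, and the effect of counting noise on the match was not tested. Both groups were thinned to 8000 UMIs per cell, and 69 of 7692 genes (0.897%) were at least 1.5-fold higher in the band and 414 (5.38%) at least 1.5-fold lower, with a median ratio of 1.02. In UMIs per cell without thinning, 3 genes were higher and 7263 lower, so these ratios are shares of a smaller total. None of 112 listed G2 and mitosis genes was higher in the band and 61 were lower (median 0.615), and with the filter read in band cells alone 0 of 108 were higher and 59 lower (median 0.615). The rule genes, read on the UMIs that chose the cells, stood at 0.872 (CDC20), 0.948 (CCNB2) and 1.15 (PTTG1). With band cells chosen on a random part of their UMIs and read in the remainder, PTTG1 was at 602 CPM, CCNB2 at 262 and CDC20 at 139. On all UMIs these were 715, 300 and 164 CPM. No such reading was made for deep cells, so these ratios do not show that the levels were matched.

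CDK1 had the lowest ratio of the listed genes, at 56.1 CPM in band cells against 229 in deep cells (0.245-fold, 0.216 to 0.277). It was seen in 24.2% of thinned band cells and 73.9% of thinned deep cells. AURKA, the spindle-pole kinase, was at 57.2 CPM against 163 (0.350-fold, 0.308 to 0.398), and TOP2A at 431 against 1139 (0.379-fold, 0.361 to 0.397). UBE2C was 0.399-fold (0.374 to 0.425), PLK1 0.414-fold (0.360 to 0.474) and KPNA2, a nuclear import carrier, 0.412-fold (0.388 to 0.437). CCNB1 differed less (0.749-fold, 0.709 to 0.791). BIRC5 was at 340 CPM against 318 (1.07-fold, 1.00 to 1.14), and HMGB2, a chromatin protein, at 844 against 886 (0.952-fold, 0.916 to 0.990). Tubulin TUBA1B was 1.07-fold (1.05 to 1.10). CCND1 (0.884-fold) and CCND2 (1.04-fold) were within 1.5-fold. Of 20 G1 regulators 3 were lower in the band and 1 was higher, TXNIP (48.2 against 31.6 CPM, 1.52-fold, 1.27 to 1.83). With the filter read in band cells alone, 3 of 21 were lower (14.3%, against 4.49% of all genes) and 1 was higher.

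**Figure D5:**
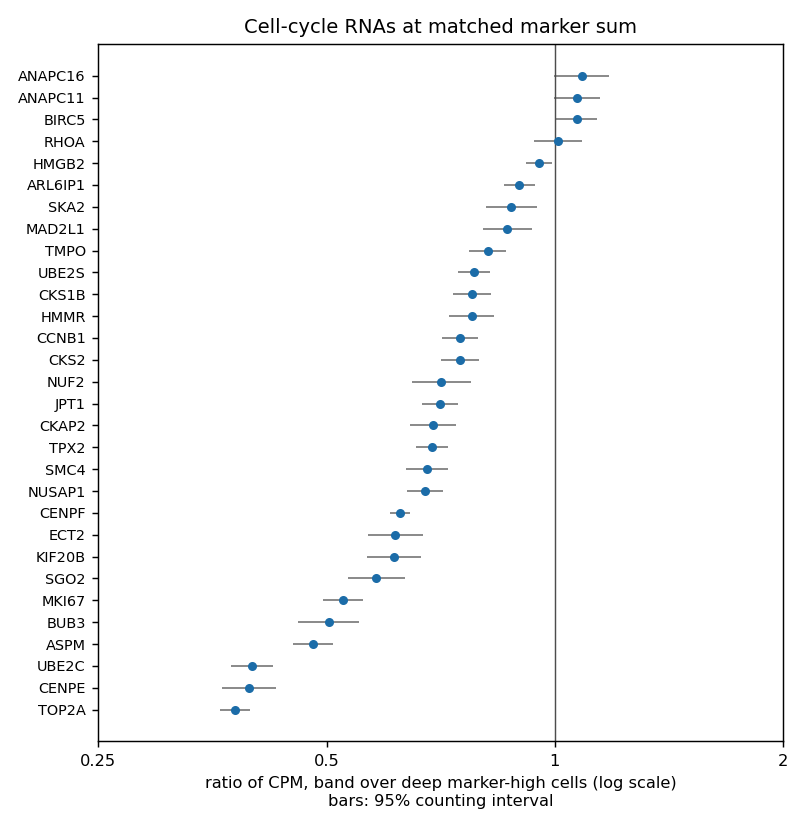
Ratio of CPM (log axis) in the 666 band over the 881 deep marker-high cells, both thinned to 8000 UMIs, for the 30 most abundant genes of the G2 and mitosis lists; bars are 95% counting intervals. The whole interval lies below 1 for 26 of the 30 genes, with TOP2A lowest (0.379), and above 1 for BIRC5 (1.07).

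Many of the genes higher in band cells were long noncoding RNAs (lncRNAs). Of the 69 genes 30 were lncRNAs (43.5%), against 2.94% of genes tested, but some passed the filter through the band cells alone. With at least 20 CPM in deep cells, 39 genes were higher, of which 13 were lncRNAs (33.3%, against 2.79% of genes tested), and with a filter of 100 CPM 1 gene, an lncRNA, was higher. AL139246.5 was highest, at 97.4 CPM against 23.6 (4.14-fold, 3.47 to 4.96), and was higher in UMIs per cell as well (2.31-fold). AL118516.1 (39.8 against 14.3 CPM), DDIT4, which restrains growth signalling through mTOR (32.7 against 11.9 CPM), and THAP2 (42.0 against 17.6 CPM) followed, and each passed through the band cells alone. The strand used for counting is not spelled out in the sources used here, and overlap of these lncRNAs with genes on the other strand was not examined. Among the 10 lowest were POLQ (0.270-fold) and NEIL3 (0.294-fold) of DNA repair, the helicase PIF1 (0.286-fold), and again LINGO2 (0.176-fold) and TENM2 (0.297-fold). No list of repair genes was counted. PIF1 was at 25.6 CPM in marker-high cells against 4.28 CPM in the rest of the band. POLQ, NEIL3 and LINGO2 passed the filter through the deep cells alone. Of the 414 lower genes 168 spanned 300 kb or more (40.6%), against 6.66% of genes tested. With the filter read in band cells alone these were 143 of 344 (41.6%), against 6.29%.

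Summed levels of contractile-cell markers, nuclear RNA and immediate early genes were lower in band than in deep marker-high cells. With at least 20 CPM in band cells, 4.49% of all genes were lower in the band, and the counts below rest on few genes. TAGLN, an actin-binding protein of smooth muscle, was at 133 CPM in thinned band cells and 336 in deep cells, 3 of 8 contractile genes with at least 20 CPM in band cells were lower there, and the summed list was 1486 CPM against 2572 CPM before thinning. Nuclear RNA summed to 7989 against 10788 CPM before thinning, 1 of 3 such genes was lower (median 0.738), and the median share of MALAT1 in a cell's UMIs was 0.762% against 1.05%. Immediate early and dissociation genes, which respond to handling of cells, summed to 294 against 429 CPM before thinning, and 1 of 4 was lower (median 0.747). Among cells with no TAGLN UMI after thinning (450 band and 515 deep cells), 120 genes were higher and 487 lower in the band. Deep cells lost more UMIs in thinning, so some of the 515 may have held TAGLN UMIs before it. The part of the contractile markers was not otherwise tested, and that of the nuclear RNA and immediate early genes was not tested.

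The marker-high cells differed among themselves in the RNAs that set them apart from deep cells. Ordered by their summed G2 list and divided into tertiles of 222 cells, PTTG1 was at 731, 731 and 685 CPM from the lowest to the highest tertile. PTTG1 gave most of the sum that chose these cells. The other rule genes were higher in the higher tertiles, with CCNB2 at 258, 303 and 337 CPM and CDC20 at 114, 168 and 206 CPM. CDK1 was at 10.7 CPM (7.33 to 15.1), 24.6 (19.3 to 30.8) and 131 (119 to 144), and AURKA, which is not in the G2 list either, at 9.04 (5.96 to 13.2), 44.9 (37.7 to 53.1) and 135 (122 to 148). UBE2C was at 67.6, 154 and 466 CPM and CCNB1 at 209, 391 and 547. BIRC5 varied less, at 296, 347 and 355 CPM. AL139246.5 had the opposite order, at 149 CPM (135 to 163), 81.3 (71.5 to 92.1) and 46.8 (39.6 to 54.9). CCND1 was at 140 CPM (127 to 154), 130 (117 to 143) and 129 (117 to 142). The intervals of this G1 cyclin overlapped, and its level does not tell whether a tertile held cells in early G1. Median depth was 13514, 13796 and 14824 UMIs, and TAGLN was at 160, 154 and 75.5 CPM. The share of UMIs in long genes was 6.02%, 5.19% and 5.18%.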

How the data were processed

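The authors deposited raw counts, whole numbers of UMIs per gene and barcode of 1 library (33538 genes, 14726 barcodes, 327640709 UMIs, median 17494 per barcode). The submitters' processing notes name Cell Ranger 7.0.1, Seurat 4.4.0 and GRCh38; the gene annotation version is not given in the sources used here. All barcodes had 1 suffix, so loading wells could not be told apart. Members and gene lists were chosen with earlier results of these data known. No doublet caller was run. Levels are UMIs summed over cells and divided by all UMIs of the group (CPM), with exact 95% Poisson intervals, exact conditional intervals for ratios and Clopper-Pearson intervals for shares. Genes needed 20 CPM (over the band, or as the mean of band and deep cells; list counts in the band were read in the group where the counted genes are low), and a ratio of 1.5 either way counted as a difference. Deep comparisons used cells thinned at random to 8000 UMIs. A count of 0 was given 3 counts as its limit. Cells are not replicates, so no test was run. The ratio and thinning steps were tested on simulated data. Named genes were the rule genes, up to 30 listed genes by role, and beyond the lists the 15 highest and 10 lowest against the rest and the 10 highest and 10 lowest against deep cells. Genes named beyond this were chosen after their values were seen. Gene spans came from GENCODE 44 and promoters from RefSeq. Sums and intervals used scipy 1.17.1 with numpy 2.4.6, tables pandas 2.3.3 and plots matplotlib 3.10.9, under Python 3.11.15. Some genes that met this rule are not reported here.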

Additional observations from a re-analysis of the deposited data

How the results depend on the processing

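Counts depended on the fold, the filter and the share of cells taken. With the highest 5% of cells, the median ratio of genes of 300 kb or more was 0.617, 139 genes were higher in band than in deep cells, and the median depth was 13728 UMIs. With the highest 20%, 325 genes were lower than in the rest, 7 listed replication genes were lower, the long-gene ratio was 0.728 and 43 genes were higher than in deep cells. With cells chosen on a random part of their UMIs and read in the remainder, the long-gene ratio was 0.689. With a filter of 5 CPM, 484 genes were higher and 1008 lower than in the rest, 22 replication genes were lower, and 444 genes (203 lncRNAs) were higher and 743 lower than in deep cells. With 100 CPM these were 44, 155, 2, 1 (1 lncRNA) and 114, and 13 listed G2 and mitosis genes were higher. At 2-fold they were 74, 173, 6, 8 (6 lncRNAs) and 134, and at the lowest fold tried 1146, 1053, 20, 517 (63 lncRNAs) and 930. At that lowest fold more genes were higher than lower against the rest, the opposite of 215 and 498. Thinned to 5000 UMIs, 105 genes were higher than in deep cells, among cells with no TAGLN UMI 120, and in UMIs per cell without thinning 3 were higher and 7263 lower. That scale carries the difference in depth itself. With the 20 CPM filter read in 1 group (added after seeing the data), 317 genes were higher and 339 lower than in the rest on marker-high cells, with a long-gene ratio of 0.694 and 9 of 37 replication genes lower (13 of 39 over the band), and 39 genes (13 lncRNAs) were higher than in deep cells on deep cells and 109 (48 lncRNAs) on band cells. The cause of these changes was not tested beyond what each setting changes by construction. Removing 1 rule gene, choosing within 1000-UMI steps, using mean per-cell CPM or UMIs per cell within the band, or leaving out neuron-marker cells kept the values of the band comparison within 1.5-fold. The comparison rests on 1 library, so no value has a replicate error. No paired analysis was possible because there was 1 sample.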

Other observations

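Cells outside the stated limits also passed the marker level of the marker-high cells. Of 102 barcodes with a mitochondrial share below 0.01 that met the gene and ANXA1, TFPI2 and CTGF limits, 42 passed it (41.2%, 31.5 to 51.4), and the median depth of these 102 was 9444 UMIs. The share of UMIs in genes of 300 kb or more had a median of 2.69% over the 102 and 3.49% over the 42, both below the 5.54% of marker-high cells. Of 146 barcodes with a mitochondrial share of 0.1 or more 6 passed (4.11%, 1.52 to 8.73). Of 1497 cells left out by ANXA1, TFPI2 and CTGF alone 34 passed (2.27%, 1.58 to 3.16), and the median depth of the 1497 was 48483 UMIs. Among kept cells under 8000 UMIs 13 of 139 passed (9.35%, 5.07 to 15.5).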
